A study of Mus musculus with 31 samples.

Results

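The genes described here encode the estrogen-related receptors (ERRs) and the coactivators of the PGC-1 family that work with them. They were chosen by name as the 3 receptor genes (Esrra, Esrrb and Esrrg), the 3 coactivator genes (Ppargc1a, Ppargc1b and Pprc1) and Perm1, a muscle gene induced by these factors. All 7 were found in both count tables, among 54532 genes in the table of the ERRα3SA experiment, 35275 in that of the insulin experiment and 34519 in both.

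RNA was measured by paired-end sequencing in 31 tissue samples of male C57BL/6N mice aged 2 to 3 months and fed a normal diet, in 8 groups. In the insulin experiment, WT mice and ERRα-/- mice, which lack ERRα in all tissues from the germline on, were fasted overnight for 12 h, injected intraperitoneally with saline or 1 unit/kg insulin, and their livers were collected 4 h later. It held 4 WT livers with saline, 4 WT livers with insulin, 4 ERRα-/- livers with saline and 3 ERRα-/- livers with insulin (replicates 1, 2 and 4). In the ERRα3SA experiment, 4 livers and 4 muscles (gastrocnemius and soleus) came from untreated WT littermates and as many from ERRα3SA mice, whose Esrra gene was edited so that 3 serines of the protein are alanines. The study states that its n counts individual mice, and the labels leave unstated if same-numbered livers and muscles share a donor. Each experiment has its own count table, and values are compared within a table.

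Total counts were 37.5 to 41.7 M (counts-in-millions) in WT livers with saline (median 39.7), 35.9 to 40.6 with insulin (38.7), 39.3 to 48.3 in ERRα-/- livers with saline (41.5) and 38.2 to 40.1 with insulin (39.2). In the ERRα3SA experiment they were 23.4 to 33.4 M in WT littermate livers (25.4), 20.5 to 22.8 in ERRα3SA livers (22.5), 23.6 to 25.8 in WT muscles (25.0) and 22.2 to 28.8 in ERRα3SA muscles (26.6). Replicate 1 of the ERRα3SA muscles stood apart from the other 3, with 19.32% of its counts on genes of the mitochondrial genome against 9.15 to 9.85%, and 16984 genes with a count against 20237 to 20878. Replicate 2 of the WT livers with insulin had 1.88% of its counts on those genes against 3.88 to 4.17% in the other 3, and 14507 genes with a count against 16349 to 16591.

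ERRs are orphan nuclear receptors that bind DNA without a known natural ligand, and PGC-1 coactivators dock on them and stand in for the ligand. Together they switch on genes of mitochondrial respiration, the citric acid cycle and fatty acid oxidation, above all in tissues with a high energy demand such as oxidative muscle, heart and brown fat. In liver, PGC-1α is best known as a gene that fasting turns on through cAMP and glucagon and that supports glucose production.

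The labelled tissues were checked against marker genes. The 5 hepatocyte markers summed to 50411 to 98030.3 CPM (counts-per-million) in the livers, with Alb the most abundant, and to 0.160 to 1.26 CPM in the muscles. The 6 markers of skeletal muscle fibres, led by Myh4, summed to 80103 to 179206 CPM in the muscles and to at most 1.14 CPM in the WT livers with saline. They were higher in single livers of other groups, at 14.4 CPM in WT littermate replicate 1, 12.2 CPM in ERRα3SA replicate 3 and 9.08 CPM in replicate 1 of ERRα-/- with insulin. Replicate 3 of the WT livers with insulin had 105 CPM of these fibre markers, against 0.237 to 3.45 CPM in the other 3 livers of its group. Slow or oxidative fibre markers, led by Myh2, summed to 3687 to 9381 CPM in the muscles, where the highest value was that of ERRα3SA replicate 1. These are mixtures of cells, in which fewer cells of a type and less RNA per cell cannot be told apart.

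The question for the untreated WT littermates was which receptor and which coactivator each tissue carries. Levels are compared between genes as RPKM (CPM divided by exon length in kilobases) and between samples of one gene as CPM, both with library sizes scaled by TMM. A gene is counted as called by the study's threshold when its unadjusted p was under 0.05 and its fold at least 1.2, and by the adjusted threshold when its Benjamini-Hochberg adjusted p over all genes tested was under 0.05. The study applied its limits to results of DESeq2, and here they are applied to those of edgeR unless DESeq2 is named. Of the 7 genes, 6 were higher in muscle by both thresholds, where 84.2% of all 14886 genes tested passed the first and 86.5% the second. With a background this high, the count says little about these genes in particular, and the levels are the description. RNA was purified with a different kit from each tissue, so tissue and kit cannot be told apart.

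Esrra (ENSMUSG00000024955, chr19:6910977-6921813, minus strand, GRCm38) encodes ERRα. In the livers of WT littermates it had 27.7, 27.1, 28.2 and 29.4 CPM, and in their muscles 90.2, 82.6, 66.9 and 78.0 CPM. The muscles were higher in 4 of 4 samples, with a log2 fold change of 1.53 (SE 0.085). Esrrb (ENSMUSG00000021255, chr12:86361117-86521628, plus strand), whose product ERRβ is best known from pluripotent cells and the inner ear, had 1.12, 0.99, 1.24 and 0.848 CPM in liver and 11, 11.5, 7.92 and 12.5 CPM in muscle. Esrrg (ENSMUSG00000026610, chr1:187608791-188214885, plus strand), whose product ERRγ drives oxidative metabolism in muscle and heart, had 4.27, 1.11, 2.79 and 1.29 CPM in liver and 38.5, 36.9, 46.1 and 47.8 CPM in muscle. Every muscle lay above every liver for both genes, and the log2 fold changes were 3.37 for Esrrb (SE 0.18) and 4.14 for Esrrg (SE 0.27). The adjusted p by edgeR was 4.85e-10 for Esrra, 4.00e-10 for Esrrb and 3.28e-09 for Esrrg.

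Per length, the mix of receptors differed by tissue. In WT littermate liver Esrra made up 92.1% ± 3.44 (SD, n = 4) of the summed RPKM of the 3 receptors, Esrrg 5.40% ± 3.23 and Esrrb 2.49% ± 0.380. In WT muscle the shares were 67.7% ± 4.22 for Esrra, 25.7% ± 4.49 for Esrrg and 6.6% ± 0.900 for Esrrb. The summed receptor level was 6.96 RPKM ± 0.305 in liver and 26.7 ± 1.96 in muscle. The lowest Esrrg share among the muscles was 21.7% and the highest among the livers 9.57%, so the samples of the tissues do not overlap. These levels depend on the length used. With that of the longest coding transcript the sums were 13.2 RPKM in liver and 45.8 in muscle, and Esrrg made up 3.31% and 17.4% of them, with samples at 1.65 to 5.93% and 14.4 to 21.3%.

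Ppargc1a (ENSMUSG00000029167, chr5:51454250-51567726, minus strand) encodes PGC-1α, the inducible coactivator of mitochondrial biogenesis. It had 9.60, 11.1, 9.30 and 8.30 CPM in the WT littermate livers and 37.8, 54.2, 46.3 and 41.6 CPM in the muscles. All 4 muscles were higher, with a log2 fold change of 2.26 (SE 0.12, adjusted p = 2.51e-10 by edgeR). Promoters were searched because Ppargc1a is known to be turned on by cAMP and FoxO1, and Perm1 by ERRs. RefSeq promoter windows (GRCm38.p6) were found for 6 of the 7 genes, 10 windows in all, and Ppargc1b had none. In the 250 bases before the start, on both strands, the ERR element TNAAGGTCA, the cAMP response element TGACGTCA and the FoxO site TGTTTAC were found in 0 of these 10 windows, and in 1.14%, 1.55% and 3.17% of all 32851 windows. Shorter cores were searched after that result was seen, and lie within the longer motifs. The core TGACG of the cAMP response element was in 17.8% of all windows and in those of Esrrb and Ppargc1a. The Ppargc1a promoter upstream of its exons (chr5:51567727-51567975, minus strand) is shown because this gene carries the insulin results, with the match to TGACG, 49 bases before the start and on the other strand, in capitals.
Ppargc1a: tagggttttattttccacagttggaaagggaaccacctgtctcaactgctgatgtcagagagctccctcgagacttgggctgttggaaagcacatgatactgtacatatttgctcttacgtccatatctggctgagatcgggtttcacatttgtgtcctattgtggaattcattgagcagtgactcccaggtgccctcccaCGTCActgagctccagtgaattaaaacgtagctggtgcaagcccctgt
A match is only a description of the letters.

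Ppargc1b (ENSMUSG00000033871, chr18:61298136-61400431, minus strand) encodes PGC-1β, a coactivator of ERRα that also serves lipid synthesis genes. Its values were 3.25, 5.43, 4.11 and 2.14 CPM in the WT littermate livers and 7.87, 10.6, 11.3 and 9.74 CPM in the muscles. The muscles were higher in 4 of 4 samples, with a log2 fold change of 1.43 (SE 0.21, adjusted p = 2.40e-05 by edgeR). Pprc1 (ENSMUSG00000055491, chr19:46044886-46072915, plus strand) encodes PRC, the family member linked to cell growth. It had 15.7, 12.6, 15.3 and 16.1 CPM in liver and 17.5, 16.4, 15.3 and 14.6 CPM in muscle. These ranges overlap, and Pprc1 was the 1 gene of the 7 not called between tissues (log2 fold change 0.13, SE 0.10, adjusted p = 0.238 by edgeR).

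**Figure D1:**
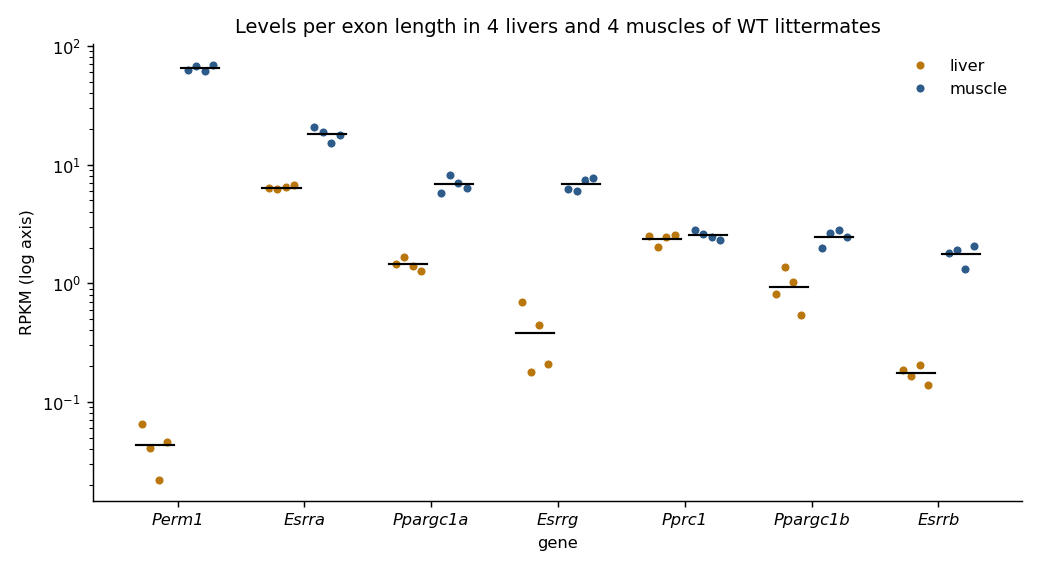
Levels per exon length (RPKM, log axis) of the 7 genes in each of 4 livers and 4 muscles of WT littermates, with the mean as a line. Perm1 goes from a mean of 0.0434 RPKM in liver to 65.0 in muscle, while Pprc1 lies at 2.38 and 2.54.

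The order of mean levels in WT littermate liver was Esrra at 6.40 RPKM, Pprc1 at 2.38, Ppargc1a at 1.45, Ppargc1b at 0.936, Esrrg at 0.381, Esrrb at 0.174 and Perm1 at 0.0434. Sample ranges of neighbours overlapped between Ppargc1a and Ppargc1b, between Ppargc1b and Esrrg, and between Esrrg and Esrrb. In WT muscle the order was Perm1 at 65.0 RPKM, Esrra at 18.1, Ppargc1a and Esrrg both at 6.82, Pprc1 at 2.54, Ppargc1b at 2.47 and Esrrb at 1.77. There the ranges of Ppargc1a and Esrrg, of Pprc1 and Ppargc1b and of Ppargc1b and Esrrb overlapped. Of the 21 pairs of genes, 18 had separate ranges in each tissue. With the length of the longest coding transcript, Esrrg (7.88) lay above Ppargc1a (6.96) in WT muscle, and the liver order was the same.

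Perm1 (ENSMUSG00000078486, chr4:156215868-156221307, plus strand) encodes a muscle protein that PGC-1 and ERR factors induce and that in turn supports oxidative genes. It had 245, 261, 237 and 270.4 CPM in the WT muscles and 8, 4, 2 and 4 counts in the WT littermate livers, or 0.0857 to 0.255 CPM. The log2 fold change between tissues was 10.49 (SE 0.14, adjusted p = 2.47e-16 by edgeR), and all 4 muscles were higher. The core AAGGTCA of the ERR element was in 4.08% of all promoter windows and in that of Perm1 alone among these genes, 202 bases before the RefSeq start and on the other strand. That promoter upstream of its exons (chr4:156215677-156215867, plus strand) is shown with the match in capitals, since Perm1 is the gene of this group that differs most between tissues.
Perm1: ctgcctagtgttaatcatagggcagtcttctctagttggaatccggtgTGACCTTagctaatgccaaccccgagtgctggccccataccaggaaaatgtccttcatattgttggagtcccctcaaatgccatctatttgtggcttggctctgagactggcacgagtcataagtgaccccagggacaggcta

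Genes that work with this pathway were described by 5 lists. Between the tissues 84.2% of all 14886 genes passed the study's threshold and 86.5% the adjusted one, so the counts of called genes say little about these lists. Of 14 ERR target genes, 13 were called higher in muscle than in liver by both thresholds and 0 lower (list median log2 2.78, all genes 0.0015), among them Slc25a4 (9.07, SE 0.14), the mitochondrial ADP/ATP carrier, and Idh3a (4.34, SE 0.095) of the citric acid cycle. Ckmt2, a mitochondrial creatine kinase, averaged 1138 CPM in muscle and was at 0 in 3 of 4 livers and 0.191 CPM in the other, so its fold is not given. Of 8 corepressors and inhibitors, 5 were higher and 3 lower (median 0.54), with Prox1, a partner that inhibits ERRα, at -3.73 (SE 0.091) and Hdac3 at 0.69 (SE 0.06). The orphan receptor Nr0b2 averaged 34.8 CPM in liver and was at 0 in 3 of 4 muscles and 0.0790 CPM in the other. Of 11 coactivator partners, 7 were higher and 1 lower (median 0.33), with the arginine methyltransferase Prmt1 at 1.98 (SE 0.074), Ncoa1 at 1.2 (SE 0.077), Ep300 at 0.92 (SE 0.063) and Ncoa2 at -0.73 (SE 0.066). Of 11 upstream regulators of Ppargc1a, 5 were higher and 4 lower (median 0.10), led by Mef2c at 8.37 (SE 0.14), Tfeb at 3.16 (SE 0.10), Mef2d at 2.58 (SE 0.064) and the AMPK subunit gene Prkaa2 at 2.24 (SE 0.063). Of 10 DNA-binding partners of PGC-1, 1 was higher and 7 lower (median -0.68), including Nr1h4 at -9.21 (SE 0.19), Ppara at -3.18 (SE 0.13) and Thrb at -0.78 (SE 0.076). Hnf4a, the hepatocyte receptor, averaged 624 CPM in liver and had 0 counts in the 4 muscles, at least 4829-fold lower from the lowest liver and a floor of 3 counts per library, and the list median is -0.68 also with this bound.

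**Figure D2:**
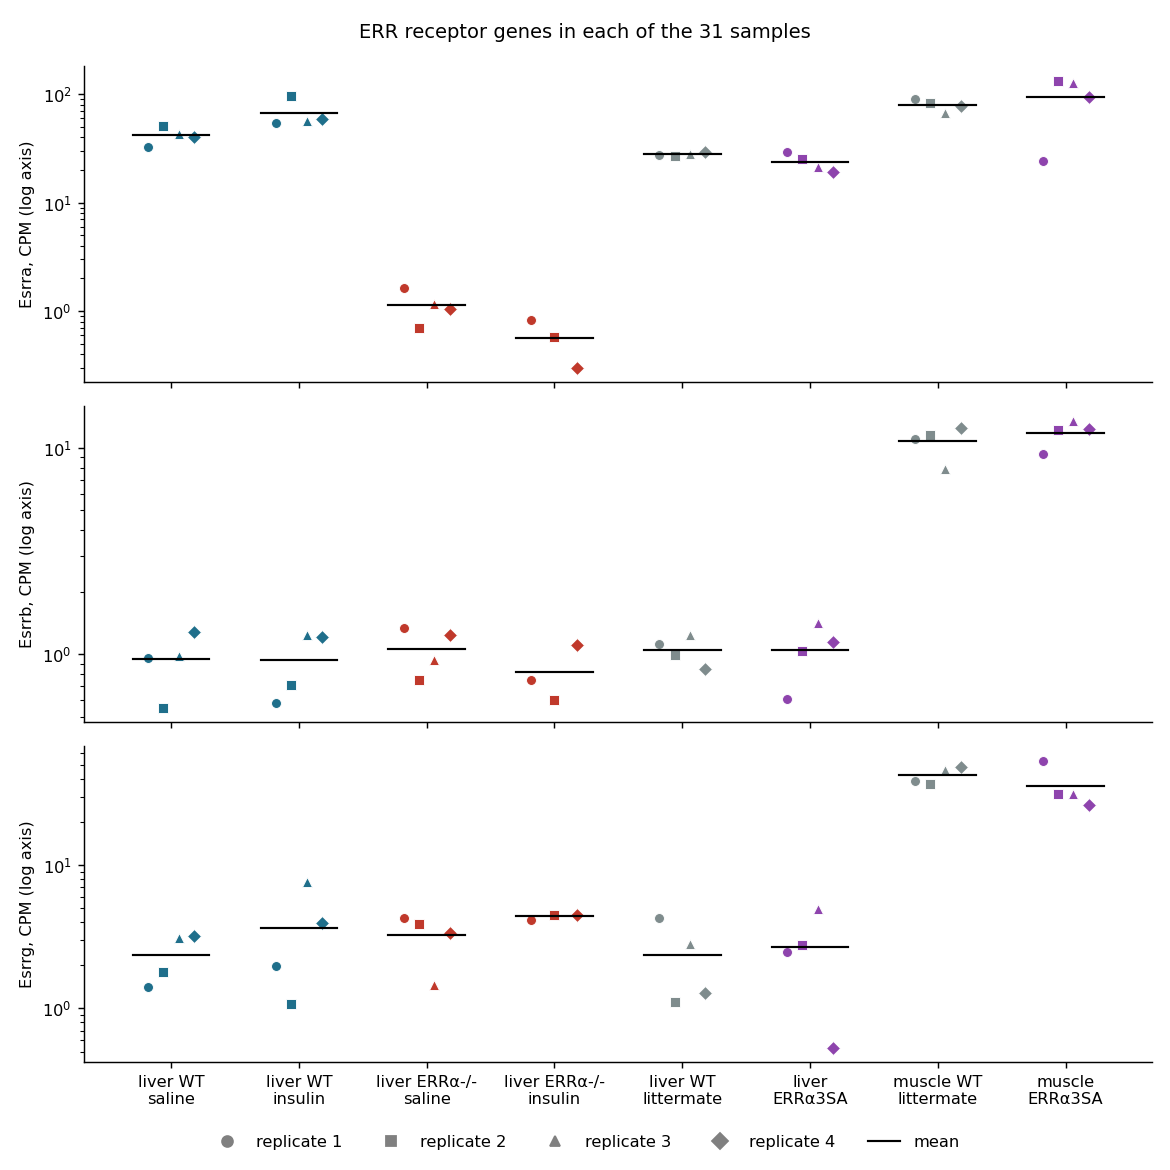
CPM (log axis) of the 3 receptor genes in each of the 31 samples, by group, with symbols for the replicate number and a line at the mean. Esrra falls to 0.298 to 1.63 CPM in the ERRα-/- livers, and Esrrb and Esrrg stay under 8 CPM in all 23 livers.

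In the insulin experiment the first question was what the loss of ERRα leaves of this family and whether its relatives replace it. Esrra had 32.3, 51.3, 42.7 and 40.5 CPM in WT livers with saline, and 1.63, 0.703, 1.15 and 1.04 CPM in ERRα-/- livers, which are 62, 29, 53 and 47 counts. With insulin the ERRα-/- livers had 0.833, 0.576 and 0.298 CPM, or 32, 21 and 11 counts. All 7 ERRα-/- livers lay below all 8 WT livers, and the log2 fold change was -5.20 with saline (SE 0.24, adjusted p = 2.58e-06) and -6.86 with insulin (SE 0.37, adjusted p = 3.55e-05) by edgeR. These 2 comparisons use separate mice.

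The relatives passed neither threshold with samples taken as unpaired. Esrrg had 1.40, 1.79, 3.08 and 3.21 CPM in WT livers and 4.25, 3.85, 1.46 and 3.37 CPM in ERRα-/- livers, both with saline. Of these, 3 of the 4 ERRα-/- livers lay above all WT livers and replicate 3 lay among the lowest, for a log2 difference of 0.44 (SE 0.37, adjusted p = 0.685 by edgeR). Without that replicate it was 0.69 (SE 0.32, adjusted p = 0.493 by edgeR). With insulin the WT livers had 1.99, 1.08, 7.55 and 3.96 CPM and the ERRα-/- livers 4.16, 4.50 and 4.50, within the WT range (log2 difference 0.26, SE 0.52, adjusted p = 0.912 by edgeR). Without WT replicate 2 that difference was -0.044 (SE 0.41). With replicate numbers taken as pairs in a block it was 1.06 and passed the study's threshold but not the adjusted one (adjusted p = 0.407 by edgeR). In that fit WT replicate 3, the highest at 7.55 CPM, has no partner and carries no weight. Esrrb ranged from 0.550 to 1.29 CPM in WT and 0.752 to 1.34 CPM in ERRα-/- livers with saline, and from 0.584 to 1.24 and 0.604 to 1.11 CPM with insulin, so its groups overlap in both. A p that misses the threshold does not show that the values did not differ, and at these low levels the standard errors of both genes were 0.37 to 0.52 on the log2 scale.

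Per length, the summed receptor level was 10 RPKM ± 1.78 (SD, n = 4) in WT livers with saline and 0.955 ± 0.257 in ERRα-/- livers. The share of Esrra in that sum was 94.6% in WT and 27.8% in ERRα-/- livers, and the share of Esrrg 3.82% and 53.3%. Because Esrra falls, the share of Esrrg would rise even at an unchanged Esrrg level. The mean of Esrrg itself was 0.382 RPKM in WT and 0.521 RPKM in ERRα-/- livers, and the samples overlap. With insulin the sum was 15.9 RPKM ± 4.35 in WT (n = 4) and 0.973 ± 0.0151 in ERRα-/- livers (n = 3), where Esrrg made up 72.7%, Esrrb 14.0% and the remaining Esrra counts 13.3%. With the length of the longest coding transcript these shares were 64.9%, 15.2% and 19.9%, so the order of Esrra and Esrrb turned, and with saline Esrra made up 37.7% and Esrrg 43.8% in ERRα-/- livers. The highest sum in any ERRα-/- liver, 1.28 RPKM, lay below the lowest in any WT liver of this experiment, 7.74 RPKM.

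Among the coactivators, Ppargc1a had 17.9, 27.1, 11.4 and 14.8 CPM in WT livers and 26.1, 20.9, 70.9 and 19.8 CPM in ERRα-/- livers with saline. Replicate 3 of the ERRα-/- livers was above all WT livers, and the other 3 lay within the WT range. The log2 difference of 0.95 (SE 0.40, adjusted p = 0.368 by edgeR) passed the study's threshold. It did not pass without ERRα-/- replicate 3 (0.32, adjusted p = 0.694 by edgeR), nor without WT replicate 1 (0.96, adjusted p = 0.477), 3 (0.79, adjusted p = 0.570) or 4 (0.87, adjusted p = 0.572), nor by DESeq2 (adjusted p = 0.407), nor with the replicate number as a block (0.77, adjusted p = 0.529 by edgeR). In replicate 3 the mitochondrial genome took up 3.91% of counts, where the other 3 livers had 3.16 to 3.21%, and the part of this in the result was not tested.

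Ppargc1b had 2.93, 8.27, 4.73 and 4.48 CPM in WT and 3.86, 2.88, 6.24 and 2.11 CPM in ERRα-/- livers with saline, which overlap (log2 difference -0.43, SE 0.37, adjusted p = 0.691 by edgeR). Without ERRα-/- replicate 3 it was -0.79 (SE 0.35), which passed the study's threshold but not the adjusted one (adjusted p = 0.474 by edgeR). Over all fits that left out 1 sample, this difference ranged from -0.79 to -0.10. Pprc1 had 14.8 to 20 CPM in WT and 16.9 to 21.0 CPM in ERRα-/- livers, and 11.3 to 17.4 and 12.8 to 18.5 CPM with insulin. Ppargc1b had 5.95 to 18.4 CPM in WT and 4.80 to 7.52 CPM in ERRα-/- livers with insulin (log2 difference -0.55, SE 0.41, adjusted p = 0.703 by edgeR), and without WT replicate 1 the difference was 0.036. With insulin, Ppargc1a had 73.6, 24.1, 31.5 and 37.2 CPM in WT and 46.3, 56.2 and 56.1 CPM in ERRα-/- livers, a log2 difference of 0.34 (SE 0.31, adjusted p = 0.765 by edgeR). WT replicate 1 lay above all ERRα-/- livers and the other 3 below them all, and without it the difference was 0.76 (SE 0.17, adjusted p = 0.183 by edgeR), past the study's threshold. Without WT replicate 2 it was 0.15 (SE 0.28).

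Perm1 had 0 counts in the 4 WT livers with saline, where 3 counts would be 0.0685 to 0.0825 CPM, and 12, 0, 10 and 14 counts in the ERRα-/- livers. With insulin it had 19, 0, 33 and 4 counts in WT and 6, 0 and 0 in ERRα-/- livers. It was below the low-count filter in these pairs of groups. Without the filter and with all groups in 1 fit it was tested, and passed the study's threshold for ERRα-/- against WT with saline (adjusted p = 0.308 and 0.310 by edgeR) and for insulin in WT livers (adjusted p = 0.111 and 0.0776), where the WT livers with saline are all at 0 counts and the folds are no bound. Without ERRα-/- insulin replicate 1, which leaves that group at 0 counts, it passed it for ERRα-/- against WT with insulin (adjusted p = 0.672 by edgeR) and for insulin in ERRα-/- livers (adjusted p = 0.311). The liver with 33 counts is the one with 105 CPM of muscle fibre markers, the livers with 19 and 4 counts had 3.45 and 0.237 CPM of them, and the ERRα-/- livers with saline had 0 to 0.848 CPM. With insulin the 1 ERRα-/- liver with Perm1 counts (6) had 9.08 CPM of them, and the other 2 had 0.713 and 0.271 CPM. The same liver had 5.46 CPM of adipocyte markers, against 0.631 and 0.488 CPM, and 0.234 CPM of Ucp1, against 0 in both. Ucp1, a marker of brown fat, was at 0.446, 0.0485, 0 and 0.842 CPM in the ERRα-/- livers with saline, which hold 12, 0, 10 and 14 Perm1 counts, and at 0 in all 8 WT livers of this experiment. The part of such markers in these counts was not tested. Floors and counts of this kind cover counting error only.

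Of the 6 genes tested with saline, 2 were called by the study's threshold (Esrra lower, Ppargc1a higher), against 11.3% of 13481 genes, and 1 by the adjusted threshold, against 0.0816%. With insulin 1 of 6 was called by either (Esrra), against 9.99% and 0.0585% of 13665 genes. Without WT replicate 2 the genes past the adjusted threshold went from 8 to 48, with Esrra the only one of the 6. Esrra is the gene these mice lack, so its calls were given by the design and say nothing about the other genes. With all samples kept, it was the only one of the 6 past the adjusted threshold in both comparisons. With insulin, hepatocyte markers were higher in all 3 ERRα-/- livers (85039.7 to 90518 CPM) than in all 4 WT livers (72375 to 80248 CPM), and the part of this in the results was not tested.

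Some ERR target genes were called lower in ERRα-/- livers. With saline, 6 of the 11 tested were called lower and 1 higher by the study's threshold, against 11.3% of all genes called in either direction, and their median log2 difference was -0.37 against 0.0037 over all genes. Cyc1 and Cycs, which carry electrons in the respiratory chain, fell by 0.45 (SE 0.093) and 0.44 (SE 0.13), and the ATP synthase gene Atp5b by 0.37 (SE 0.10). Cycs had 73.1, 54.3, 59.9 and 68.8 CPM in WT and 52.1, 47.2, 39.1 and 50.6 CPM in ERRα-/- livers. The ERRα-/- livers were below all WT livers in 4 of 4 samples for each of these genes. With insulin, 5 of 11 were called lower and 0 higher, against 9.99% of all genes (median -0.36 against -0.021), with Cycs at -0.90 (SE 0.13), Cyc1 at -0.89 (SE 0.17), Idh3a at -0.72 (SE 0.20) and Atp5b at -0.52 (SE 0.14), below all WT livers in 3 of 3 samples. By the adjusted threshold edgeR called 0 of the 11 in either comparison, and DESeq2 called 2 with saline and 3 with insulin. Without WT insulin replicate 2 edgeR called Cycs (-0.84, adjusted p = 0.0249) and Cyc1 (-0.72, adjusted p = 0.0260) by the adjusted threshold.

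With saline, 3 of 8 corepressors were called lower in ERRα-/- livers (median -0.21), among them Prox1 at -0.34 (SE 0.11) and Nrip1 at -0.36 (SE 0.12), each below all WT livers in 4 of 4 samples, and with insulin 1 was called higher (median 0.15), Prox1 at 0.48 (SE 0.19). Of 10 coactivator partners tested, 2 were called lower with saline (median -0.11), Ncoa1 at -0.33 (SE 0.12) and Ncoa3 at -0.32 (SE 0.12), and 2 higher with insulin (median 0.25), Lpin1, a phosphatidate phosphatase that coactivates with PGC-1α, at 0.77 (SE 0.20) and Crebbp at 0.51 (SE 0.15). Of 11 upstream regulators 1 was called with saline (median 0.095), Prkaa2 at -0.39 (SE 0.15), and with insulin 2 were higher and 2 lower (median -0.022), Creb1 at 0.38 (SE 0.15), Foxo1 at 0.46 (SE 0.20), Prkaa2 at -0.39 (SE 0.16) and Tfeb at -0.71 (SE 0.31). Of 10 DNA-binding partners 1 was called higher in each, Pparg at 0.71 (SE 0.27) with saline (median -0.014) and Thrb, a thyroid hormone receptor, at 0.75 (SE 0.21) with insulin (median 0.061). None of these passed the adjusted threshold in edgeR, and DESeq2 called 1 coactivator partner with insulin. Over all genes 11.3% with saline and 9.99% with insulin passed the study's threshold, so 1 or 2 calls in a list of 10 or 11 say little about that list. Without ERRα-/- replicate 3 with saline, Ncoa3 (-0.25) and Prkaa2 (-0.33) no longer passed the study's threshold, nor did Foxo1 (0.33) without WT replicate 2 with insulin.

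The second question was how these genes answer to insulin. In WT livers Esrra had 53.7, 96.4, 56.1 and 59.0 CPM with insulin, against 32.3 to 51.3 CPM with saline. All 4 livers with insulin were above all 4 with saline, and the log2 fold change was 0.67 (SE 0.21, adjusted p = 0.122 by edgeR). Replicate 2, with the highest value, is the liver with few mitochondrial genome counts, and without it the change was 0.43 (SE 0.15, adjusted p = 0.18 by edgeR), still past the study's threshold. DESeq2 gave Esrra an adjusted p of 0.0313.

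Ppargc1a had 73.6, 24.1, 31.5 and 37.2 CPM in WT livers with insulin, against 17.9, 27.1, 11.4 and 14.8 CPM with saline. Here 3 of 4 livers with insulin were above all livers with saline, and replicate 2 lay within their range. It rose by the study's threshold, with a log2 fold change of 1.22 (SE 0.34, adjusted p = 0.0897 by edgeR), and DESeq2 gave an adjusted p of 0.00409. Without replicate 1, the highest, the change was 0.80 (SE 0.26, adjusted p = 0.149 by edgeR), and it passed the study's threshold with any 1 sample left out.

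Ppargc1b had 18.4, 6.27, 6.17 and 5.95 CPM with insulin and 2.93, 8.27, 4.73 and 4.48 CPM with saline in WT livers. Replicate 1 was high, as for Ppargc1a, and the other 3 lay within the range of the livers with saline. The log2 difference was 0.85 (SE 0.42, adjusted p = 0.317 by edgeR), and 0.27 (SE 0.31, adjusted p = 0.719) without replicate 1. It was 1.00 without insulin replicate 2, 1.00 without 3, 1.01 without 4 and 1.18 without saline replicate 2, each past the study's threshold. Pprc1 had 11.3 to 17.4 CPM with insulin and 14.8 to 20 CPM with saline, Esrrg 1.08 to 7.55 and 1.40 to 3.21 CPM, and Esrrb 0.584 to 1.24 and 0.550 to 1.29 CPM, and for all 3 the groups overlap.

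Of the 6 genes tested in WT livers, 2 rose and 0 fell by the study's threshold, against 17.2% of 13463 genes, and 0 passed the adjusted threshold in edgeR, against 3.16%. DESeq2 called 3 (Esrra, Ppargc1a and Ppargc1b) and 2 (Esrra and Ppargc1a). In edgeR, Ppargc1a passed the adjusted threshold without the low-count filter (adjusted p = 0.0465) and Esrra with the replicate number as a block (adjusted p = 0.0403).

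In ERRα-/- livers, Ppargc1a had 46.3, 56.2 and 56.1 CPM with insulin and 26.1, 20.9, 70.9 and 19.8 CPM with saline. The 3 livers with insulin lay above 3 of the 4 with saline and below replicate 3, for a log2 difference of 0.61 (SE 0.39, adjusted p = 0.451 by edgeR). Without that replicate it was 1.25 (SE 0.14, adjusted p = 0.00211 by edgeR), past both thresholds. Ppargc1b had 6.69, 7.52 and 4.80 CPM with insulin and 3.86, 2.88, 6.24 and 2.11 CPM with saline, a log2 difference of 0.74 (SE 0.34, adjusted p = 0.284 by edgeR), and of 1.10 (SE 0.28, adjusted p = 0.0540) without replicate 3 or 0.91 (SE 0.38, adjusted p = 0.314) without insulin replicate 4, both past the study's threshold. The remaining Esrra counts gave -0.99 (SE 0.52, adjusted p = 0.354 by edgeR), and -1.37 without insulin replicate 1, past the study's threshold. Pprc1 had 12.8 to 18.5 CPM with insulin and 16.9 to 21.0 CPM with saline (log2 difference -0.26, SE 0.15), and without insulin replicate 2 its difference of -0.41 passed the study's threshold.

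With all samples kept, 0 of the 6 genes tested in ERRα-/- livers were called by edgeR by either threshold, against 17.2% and 2.91% of 13684 genes. DESeq2 called 1 by the study's threshold (Ppargc1b) and 0 by the adjusted one, and 0 of the 6 had an unadjusted p under 0.05 in edgeR. With the replicate number as a block, edgeR called Ppargc1a (1.25, adjusted p = 0.00482) and Ppargc1b (1.12, adjusted p = 0.0368) by both thresholds, in a fit where saline replicate 3 has no partner and carries no weight.

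**Figure D3:**
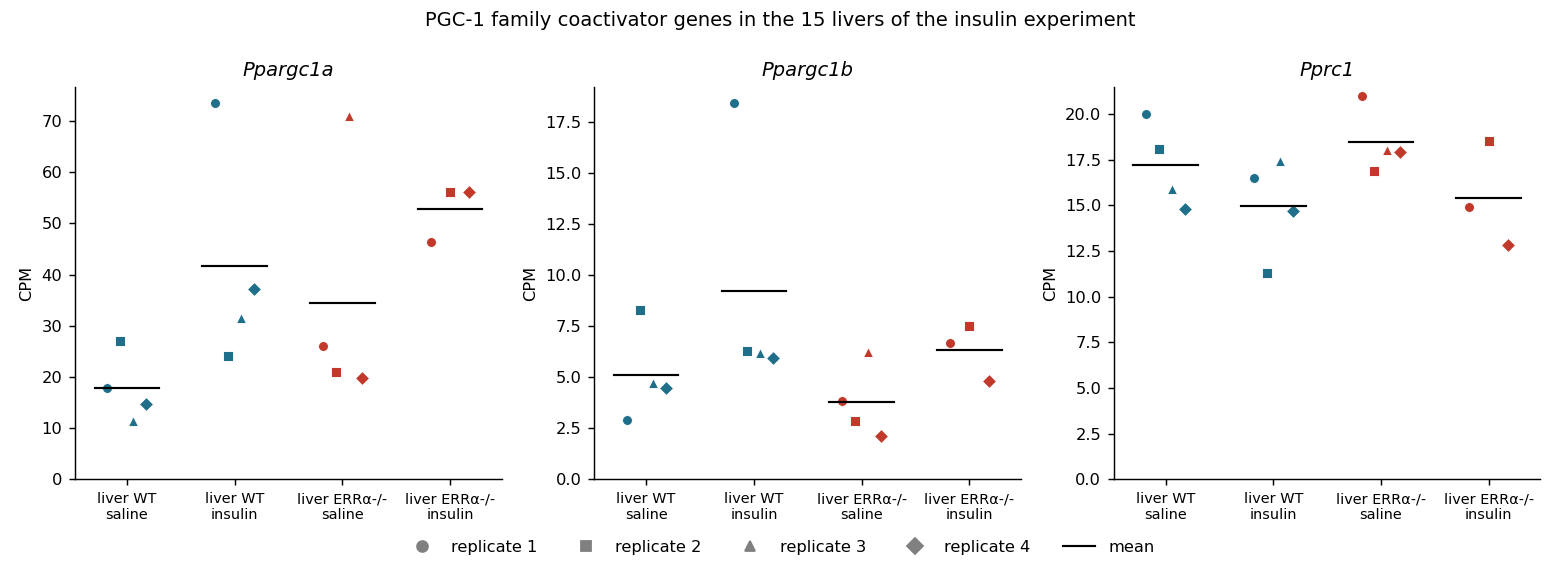
CPM of Ppargc1a, Ppargc1b and Pprc1 in each of the 15 livers of the insulin experiment, by group, with symbols for the replicate number and a line at the mean. For Ppargc1a, replicate 1 of WT with insulin (73.6 CPM) and replicate 3 of ERRα-/- with saline (70.9 CPM) lie far above the rest of their groups.

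Whether the insulin effect differs between genotypes was tested as an interaction, coded as the effect in ERRα-/- livers minus that in WT livers. For Ppargc1a it was -0.61 (SE 0.58, adjusted p = 0.787 by edgeR) and for Ppargc1b -0.11 (SE 0.59, adjusted p = 0.971), so a difference between genotypes in their insulin effect was not shown. For Esrra it was -1.65 (SE 0.42, adjusted p = 0.422 by edgeR), past the study's threshold, with counts of 11 to 62 on the ERRα-/- side. Those are remaining counts of the gene these mice lack, so the value does not compare an intact Esrra in both genotypes. For Perm1 the fit gave -8.75 (SE 2.71, adjusted p = 0.460 by edgeR), also past that threshold, but its 4 WT livers with saline were all at 0 counts, so this value is no bound. In all 2 of 7 genes were thus called by the study's threshold, against 8.79% of 14670 genes, and 0 by the adjusted threshold, against 0%. With these limits, the 2 calls say little about this family. Over all genes the adjusted threshold gave 0 in edgeR, with 1289 at an unadjusted p under 0.05, and 20 in DESeq2, Esrra among them.

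**Figure D4:**
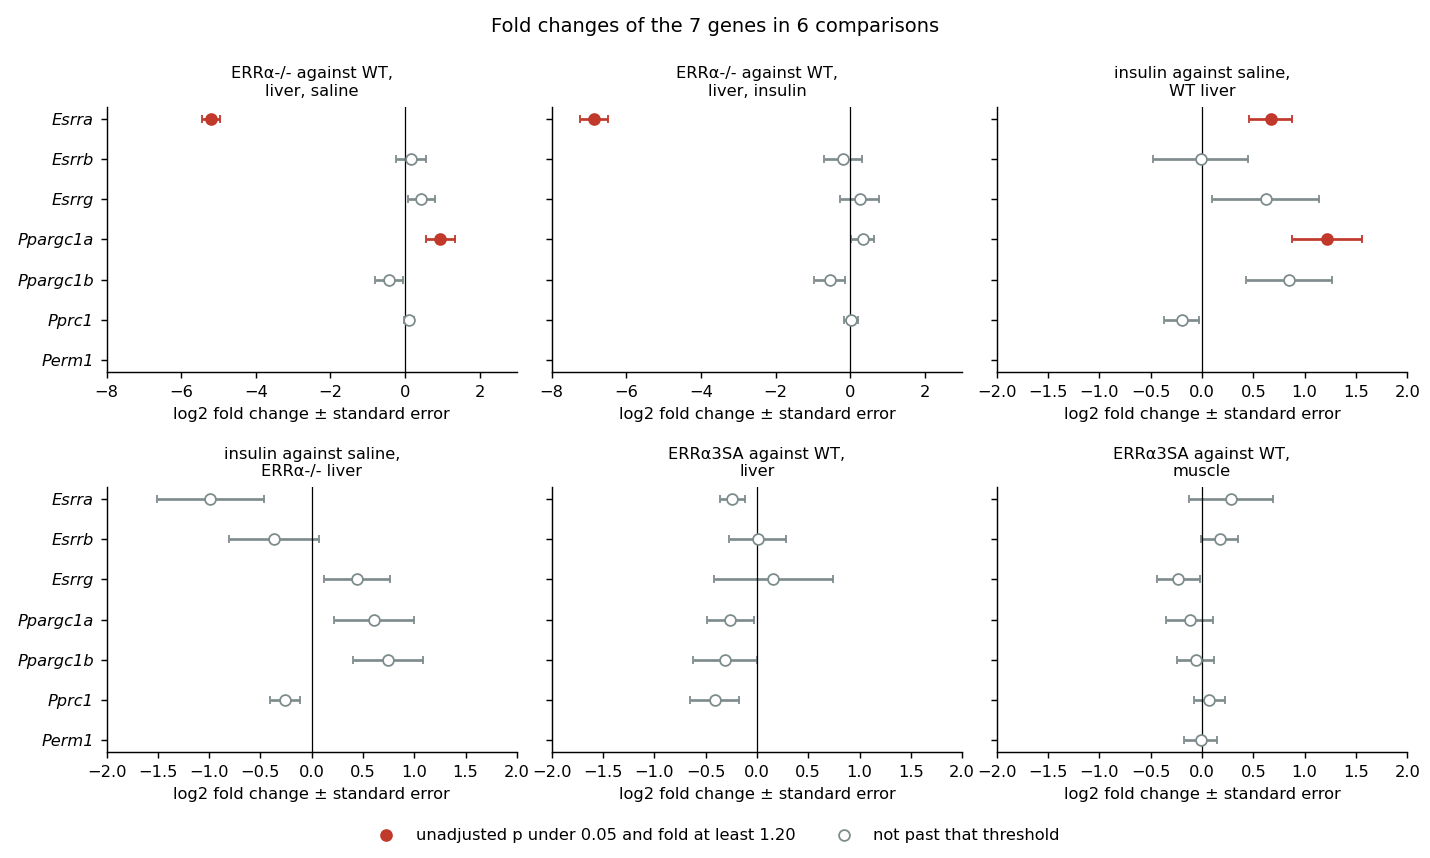
Log2 fold changes with standard errors of the 7 genes in 6 comparisons by edgeR, red where a gene passed the study's threshold, with a wider axis for the 2 comparisons of ERRα-/- with WT. Perm1 was below the low-count filter in liver and is drawn for muscle only.

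In WT livers Pdk4, the kinase that holds back pyruvate oxidation, had 26.5, 10.3, 63.0 and 24.4 CPM with insulin and 4.25, 4.04, 7.49 and 5.62 CPM with saline, a rise of 2.54 (SE 0.45, adjusted p = 0.0150 by edgeR) in 4 of 4 livers. For insulin, 17.2% of all genes passed the study's threshold in each genotype and 8.79% in the interaction. Of 11 ERR target genes, 5 rose and 1 fell by it (median 0.35 against 0.0036 over all genes), with Cs, citrate synthase, at 0.35 (SE 0.12), Idh3a at 0.57 (SE 0.19) and Vegfa at -0.37 (SE 0.11). In ERRα-/- livers 3 rose and 1 fell (median 0.14 against -0.022), with Pdk4 at 1.42 (SE 0.31, adjusted p = 0.0364 by edgeR), Idh3a at 0.38 (SE 0.17) and Vegfa at -0.33 (SE 0.11). Without replicate 3 with saline Idh3a was at 0.31 and no longer called. The interaction called 2 of 11, Cycs at -0.45 (SE 0.18) and Cyc1 at -0.43 (SE 0.18), with a median of -0.19 against -0.02, and 0 by the adjusted threshold.

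Of 8 corepressors, 4 fell with insulin in WT livers by the study's threshold, 1 of them (Prox1) by the adjusted one, and 0 rose (median -0.33), where 17.2% of all genes were called. Prox1 had 127, 103, 178 and 182 CPM with insulin and 267, 277, 224 and 246 CPM with saline, a log2 change of -0.78 (SE 0.18, adjusted p = 0.0424 by edgeR) in 4 of 4 livers. Ncor1 was at -0.49 (SE 0.16) and the acetyltransferase Kat2a, which represses PGC-1α, at -0.32 (SE 0.13). Without replicate 2 with insulin Prox1 was at -0.64 (adjusted p = 0.0537 by edgeR) and missed the adjusted threshold, and Kat2a at -0.28 missed the study's threshold. In ERRα-/- livers Prox1 had 219, 198 and 203 CPM with insulin and 221, 212, 189 and 179 CPM with saline, and 1 of 8 corepressors was called, Nrip1 higher at 0.35 (SE 0.14, list median 0.053). The interaction called 2 of 8 by the study's threshold (median 0.35), Prox1 at 0.83 (SE 0.23, adjusted p = 0.422 by edgeR) and Ncor1 at 0.56 (SE 0.22).

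Lpin1 rose in both genotypes, from 219, 476, 223 and 86.1 CPM to 787, 799.8, 887 and 1167 CPM in WT livers and from 464, 221, 545 and 319 CPM to 1132, 1897 and 1662 CPM in ERRα-/- livers. Every liver with insulin lay above every liver with saline of its genotype, and the log2 changes were 1.86 (SE 0.40, adjusted p = 0.0303 by edgeR) and 2.01 (SE 0.28, adjusted p = 0.00758). Of 10 coactivator partners tested, 1 rose and 1 fell in WT (median -0.16), the other being Ncoa2 at -0.34 (SE 0.14), and 4 rose in ERRα-/- livers (median 0.25), with Med1 at 0.45 (SE 0.14), Ncoa1 at 0.27 (SE 0.12) and Ncoa3 at 0.28 (SE 0.13). Without WT replicate 2 with insulin Ncoa2 was at -0.27, and without ERRα-/- replicate 3 with saline Ncoa1 was at 0.25 and Ncoa3 at 0.22, none of them called. The interaction called 2 of these 10 (median 0.39), Ncoa2 at 0.49 (SE 0.19) and Ncoa3 at 0.48 (SE 0.21). With 17.2% of all genes called in each genotype and 8.79% in the interaction, 2 calls of 10 say little about this list.

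Of 11 upstream regulators of Ppargc1a, edgeR called 0 in WT livers by either threshold (median -0.11), none having an unadjusted p under 0.05 with a fold of at least 1.2, and DESeq2 called 0 by the adjusted one. In ERRα-/- livers 2 rose and 3 fell (median -0.07), against 17.2% of all genes called. Tfeb, a regulator of lysosome genes, was at -0.95 (SE 0.21, adjusted p = 0.0375 by edgeR), Mef2c at -0.70 (SE 0.28), Mef2d at 0.34 (SE 0.11) and the CREB coactivator Crtc2 at 0.47 (SE 0.13), which also gave the 1 interaction called, 0.45 (SE 0.18, list median 0.0096). Without ERRα-/- replicate 3 with saline Crtc2 was at 0.59 and passed the adjusted threshold (adjusted p = 0.0188 by edgeR). Of 10 DNA-binding partners, 1 rose and 1 fell in each genotype (medians -0.19 and -0.02). Hnf4a rose by 0.44 (SE 0.15) in WT and 0.51 (SE 0.18) in ERRα-/- livers. The genes that fell were Thrb in WT, at -0.74 (SE 0.20), and Pparg in ERRα-/- livers, at -1.30 (SE 0.26, adjusted p = 0.0268 by edgeR), with interactions of 0.76 (SE 0.26) and -0.93 (SE 0.43) in a list with a median of 0.076. The WT and ERRα-/- comparisons with insulin share livers with those between genotypes, so their values stand side by side and are not independent.

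The third question was what the ERRα3SA mutation does to these genes. In liver, Esrra had 29.4, 25.4, 21.1 and 19.2 CPM in ERRα3SA mice and 27.7, 27.1, 28.2 and 29.4 CPM in WT littermates. Here 3 of 4 mutant livers were below all WT livers and replicate 1 lay at their top, for a log2 difference of -0.24 (SE 0.12, adjusted p = 0.713 by edgeR), and of -0.36 (SE 0.10, adjusted p = 0.567) without mutant replicate 1, past the study's threshold. Ppargc1a had 8.13, 7.64, 11.6 and 4.62 CPM against 9.60, 11.1, 9.30 and 8.30 CPM, and without mutant replicate 3, the highest, its difference moved from -0.26 to -0.49, past that threshold, while without mutant replicate 4, the lowest, it was -0.069. Pprc1 had 9.73, 12.9, 6.08 and 16.2 CPM against 12.6 to 16.1 CPM, and without mutant replicate 4, again the highest, its difference moved from -0.41 to -0.64, also past it. Leaving out 1 sample at a time gave Pprc1 differences from -0.64 to -0.21. Esrrb (0.611 to 1.42 CPM against 0.848 to 1.24), Esrrg (0.529 to 4.90 against 1.11 to 4.27) and Ppargc1b (1.75 to 3.71 against 2.14 to 5.43) overlapped, and Perm1 had 1, 2, 4 and 0 counts.

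With all samples kept, 0 of 6 genes tested in liver were called by either threshold in edgeR, against 4.88% and 0% of 13339 genes, 0 had an unadjusted p under 0.05, and DESeq2 called 0. Over all genes edgeR gave 0 by the adjusted threshold, 996 at an unadjusted p under 0.05, and DESeq2 42. Mutant replicate 4 had the fewest counts of its group (20.5 M) and 50411 CPM of hepatocyte markers, against 82413 to 95525 CPM in the other 3. It held the lowest Esrrg, Ppargc1a and Esrra values and the highest Pprc1 value of the mutant livers. Without it the difference of Esrra was -0.15, that of Ppargc1a -0.069 and that of Pprc1 -0.64, and the cause of its values was not tested. Cholangiocyte markers were lower in all 4 mutant livers (1.32 to 2.65 CPM) than in all 4 WT littermate livers (3.43 to 4.63 CPM), so cell mixture and genotype cannot be told apart there.

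In muscle, the answer turned on 1 sample. Esrra had 24.3, 133, 127 and 94.5 CPM in ERRα3SA muscles and 90.2, 82.6, 66.9 and 78.0 CPM in WT muscles. Mutant replicates 2, 3 and 4 lay above all WT muscles and replicate 1 far below them, for a log2 difference of 0.28 (SE 0.41, adjusted p = 1.00 by edgeR). Without replicate 1 it was 0.60 (SE 0.12, adjusted p = 0.0373 by edgeR), past both thresholds. In mutant replicates 2, 3 and 4 the mitochondrial genome took up 9.15 to 9.85% of counts, against 10.04 to 10.82% in WT muscles. The part of this in the results was not tested. Esrrg had 53.3, 31, 31.4 and 26.3 CPM in mutant and 38.5, 36.9, 46.1 and 47.8 CPM in WT muscles. Here replicate 1 was above all WT muscles and the other 3 below them all, and the log2 difference was -0.23 (SE 0.21, adjusted p = 1.00 by edgeR) with it and -0.48 (SE 0.11, adjusted p = 0.0459) without it.

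Ppargc1a had 59.8, 33.0, 42.2 and 27.8 CPM in mutant and 37.8, 54.2, 46.3 and 41.6 CPM in WT muscles, again with replicate 1 the highest. Its log2 difference was -0.12 (SE 0.23, adjusted p = 1.00 by edgeR), and -0.36 (SE 0.15, adjusted p = 0.196) without replicate 1, past the study's threshold. Perm1 had 176, 267, 306 and 237 CPM against 237 to 270.4 CPM, with log2 differences of -0.013 (SE 0.16) with all samples and 0.13 (SE 0.085) without replicate 1. Esrrb (9.34 to 13.5 CPM against 7.92 to 12.5), Ppargc1b (8.02 to 12.1 against 7.87 to 11.3) and Pprc1 (13.5 to 19.8 against 14.6 to 17.5) overlapped between the genotypes.

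**Figure D5:**
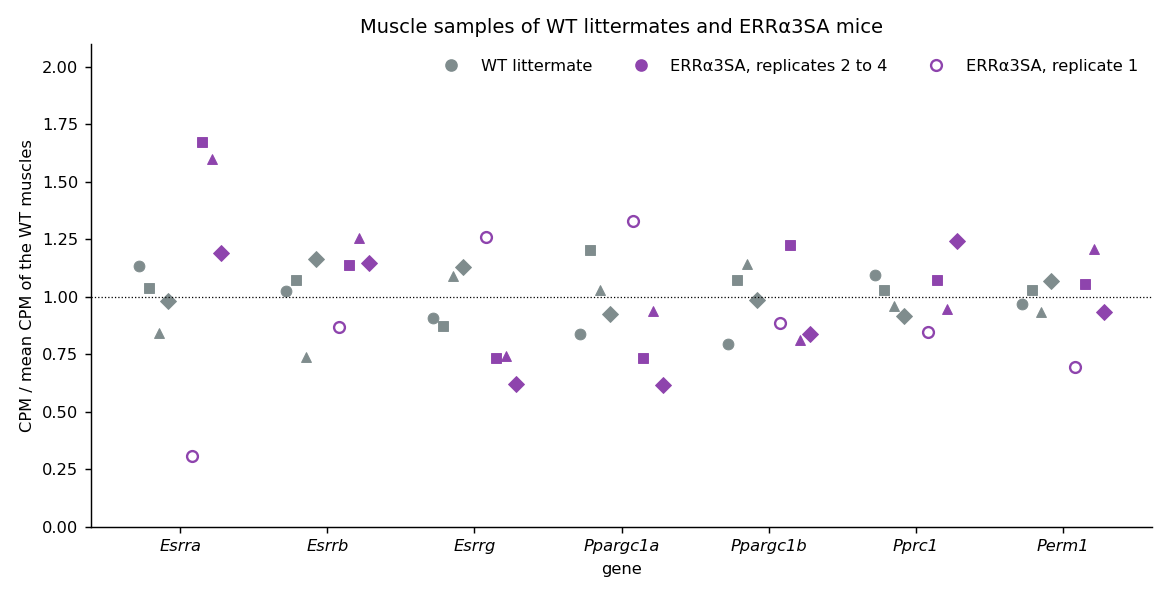
CPM of the 7 genes in each muscle, divided by the mean of the 4 WT muscles, with mutant replicate 1 as an open symbol. For Esrra (24.3 CPM), Esrrg (53.3 CPM) and Ppargc1a (59.8 CPM), replicate 1 lies on the other side of the WT muscles from mutant replicates 2 and 4.

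With all 8 muscles, 0 of 7 genes were called by either threshold in edgeR, against 4.54% and 0% of 14081 genes, 0 had an unadjusted p under 0.05, and DESeq2 called 0. Over all genes edgeR gave 0 by the adjusted threshold, 672 at an unadjusted p under 0.05, and DESeq2 56. Without mutant replicate 1, 3 of 7 genes were called by the study's threshold, against 17.4% of 14363 genes, and 464 genes passed the adjusted one. Per length, Esrra made up 35.4% of the receptors in replicate 1 and at most 81.2% in the other mutant muscles, against 63.6 to 71.9% in WT muscles. With the length of the longest coding transcript these were 47.3%, at most 87.3%, and 74.1 to 80.5%.

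Markers in the muscles give further differences between samples. Fibre markers summed to 179206 CPM in mutant replicate 1, 102867, 107740.3 and 80103 CPM in replicates 2, 3 and 4, and 104100.4 to 117437 CPM in WT muscles. Leukocyte markers, led by Adgre1 and with Clec4f at 0, summed to 52.7 CPM in mutant replicate 4 and to 8.92 to 13.8 CPM in the other 7 muscles. Slow or oxidative fibre markers were 9381 CPM in mutant replicate 1 and 3687, 4472 and 3952 CPM in replicates 2, 3 and 4, all 3 below the lowest WT muscle (4495 to 5411 CPM). These are not all the lists of markers. Cell mixture and genotype cannot be told apart in these muscles, and the part of cell mixture in the values of the 7 genes was not tested.

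The difference between tissues in the effect of ERRα3SA was tested as muscle effect minus liver effect. It was 0.50 for Esrra (SE 0.46, adjusted p = 1.00 by edgeR) with all samples and 0.81 (SE 0.19, adjusted p = 0.0418) without mutant muscle replicate 1. By edgeR 0 of 7 genes were called by either threshold with all samples, against 5.57% and 0% of 15688 genes, 0 had an unadjusted p under 0.05, and DESeq2 called 0. Over all genes the adjusted threshold gave 0 in edgeR, with 881 at an unadjusted p under 0.05, and 27 in DESeq2. Without mutant liver replicate 4 Pprc1 was called by the study's threshold at 0.71 (SE 0.27), and without mutant liver replicate 3 Perm1 at 1.78 (SE 0.71). That Perm1 value rests on 1, 2 and 0 counts in mutant livers against 8, 4, 2 and 4 in WT littermate livers. The liver left out had 12.2 CPM of muscle fibre markers and the WT liver with 8 counts 14.4 CPM, and their part in the value was not tested.

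ERR target genes rose in mutant muscle in 3 of 14 cases and fell in 0 by the study's threshold, against 4.54% of all 14081 genes called in either direction (median 0.13 against 0.023 over all genes). Fabp3, the muscle fatty acid carrier, had 427, 551, 544 and 550.2 CPM in mutant and 383, 360.0, 233 and 330.2 CPM in WT muscles, a log2 change of 0.69 (SE 0.17, adjusted p = 0.725 by edgeR) in 4 of 4 samples. Cycs had 636, 416, 403 and 393 CPM against 284, 302, 288 and 318 CPM, and Slc25a4 3196, 3978, 3964 and 3196 CPM against 2777, 3005, 2651 and 2731 CPM. All mutant muscles were above all WT muscles for the 3 genes, with log2 changes of 0.66 (SE 0.17) for Cycs and 0.39 (SE 0.13) for Slc25a4. Without replicate 1 the changes were 0.79 for Fabp3 (adjusted p = 0.0291 by edgeR), 0.47 for Cycs (adjusted p = 0.00952) and 0.45 for Slc25a4 (adjusted p = 0.0374). By the adjusted threshold edgeR called 0 of 14 with all samples and DESeq2 called 1.

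In mutant liver 1 of 11 ERR target genes was called higher and 1 lower (median 0.026 against -0.00039 over all genes), Pdk4 at 0.87 (SE 0.34) and Vegfa at -0.27 (SE 0.11), and the interaction with tissue called Cycs at 0.56 (SE 0.21) and Slc25a4 at 0.63 (SE 0.24), 2 of 14 (median 0.094 against 0.0035). Without mutant muscle replicate 1 these were 0.36 and 0.67, both still past the study's threshold. Corepressors gave 1 of 8 in liver, Prox1 at 0.32 (SE 0.12, list median 0.14), 1 of 7 in muscle, Nrip1 at 0.42 (SE 0.18, list median 0.069), and 0 of 8 in the interaction (median -0.035). Of 11 coactivator partners 0 were called in liver (median 0.03) and 1 in muscle, Crebbp lower at -0.32 (SE 0.11, list median -0.07), with an interaction of -0.44 (SE 0.15, list median -0.17). Upstream regulators gave 0 of 11 in liver, 0 of 10 in muscle and 0 of 11 in the interaction (medians 0.026, 0.0052 and -0.058). DNA-binding partners gave 0 of 10 in liver, 1 of 8 in muscle, Ppara at 0.39 (SE 0.17), and 0 of 10 in the interaction (medians 0.055, 0.029 and -0.0059). In muscle without mutant replicate 1, Nrip1 was at 0.23 and Crebbp at -0.32 and Ppara at 0.41, of which Nrip1 was no longer called. By the adjusted threshold edgeR and DESeq2 called 0 genes of these 4 lists in the 3 comparisons. Over all genes the study's threshold called 4.88% in liver, 4.54% in muscle and 5.57% in the interaction.

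Some genes followed the same pattern across samples. Over the 15 livers of the insulin experiment, among 13310 genes, log2 CPM of Ppargc1a was most like that of Slc25a51 (Pearson r 0.91, Spearman rho 0.90), the mitochondrial NAD carrier, and then Tbc1d8 (r 0.90, rho 0.88) and Csnk1a1 (r 0.89, rho 0.89). Without the 2 livers farthest from its median, WT with insulin replicate 1 and ERRα-/- with saline replicate 3, the r values were 0.88, 0.89 and 0.85. Esrrg was most like Ubn1 (r 0.93, rho 0.88), Klhl28 (r 0.87, rho 0.76) and Clcn5 (r 0.86, rho 0.74), with r of 0.93, 0.78 and 0.73 without the 2 farthest livers. Ppargc1b was most like Ppl (r 0.91, rho 0.86), Rhobtb1 (r 0.87, rho 0.80) and Gmeb2 (r 0.86, rho 0.77), which without the 2 farthest livers became 0.82, 0.74 and 0.63, so these rest in part on those livers.

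Over the 8 muscles, among 13932 genes, Esrra was most like Aars2 (r 1.00, rho 0.95), Pebp1 (r 1.00, rho 1.00) and Metrn (r 1.00, rho 0.98), which without mutant replicate 1 had r of 0.98, 0.99 and 0.98 over 7 muscles, at ranks 11, 3 and 19. Ppargc1a was most like Pax7 (r 0.98, rho 0.98), a gene of muscle stem cells, Ccdc173 (r 0.97, rho 0.95) and Rfk (r 0.96, rho 0.98), and Perm1 most like Ppp6r1 (r 0.99, rho 0.90), Ppcs (r 0.99, rho 0.90) and Arhgef18 (r 0.98, rho 0.95). Without mutant replicate 1, r was 0.98, 0.97 and 0.96 for the first 3 and 0.99, 0.97 and 0.96 for the others, and 3 of the 9 genes were still among the first 3. These are the highest of many genes over a few samples that share groups and libraries, and they are a description. Ranked by Spearman's rho, with ties taken as first, 4 of the 18 genes were again among the first 3. Over 8 muscles such ties are many, and 22 genes share the rho of 1.00 that Pebp1 has with Esrra.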

How the data were processed

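The authors deposited raw counts per gene, from paired-end reads aligned to mm10 by STAR; the strand setting is not stated. GENCODE vM21 gave the symbols of Ensembl genes, and the members and lists were chosen with earlier results of these data known. Each comparison was fitted on its own groups with edgeR 4.0.16 in R 4.3.3, by TMM normalization, filterByExpr, the quasi-likelihood test and Benjamini-Hochberg adjustment over all genes tested. DESeq2 1.42.0 was the alternative test. The standard error is the log2 fold change over the square root of F. RPKM used the union of exons. Named genes were the 7 members and, of each list, the genes called by the study's threshold, at most the 4 with the smallest p. Like genes were the 3 with the highest Pearson correlation of log2 CPM (prior count 2), predicted genes left out. To see if replicate numbers mark pairs, deviations from group means were correlated between samples of one number. Every pair passed 0.1 in 0 of 7 comparisons (range -0.18 to 0.24), so samples were taken as unpaired. The fits were tried on simulated data. Alternatives changed the normalization, the filter, mitochondrial genome genes, the groups fitted, the replicate block, and the samples by leaving out 1. The shorter motif cores, the like genes without 1 muscle or with ties, the list genes without single samples, and the shares by the longest coding transcript were chosen after seeing the data. Scripts ran in Python 3.11.15 with NumPy 2.4.6, pandas 2.3.3 and matplotlib 3.10.9.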

Additional observations from a re-analysis of the deposited data

Results flagged for a closer look

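In 70 groups of 4 samples, 49 of the 7 genes and 21 of depth measures, the sample farthest from the others was compared with the range of its group, a test that picks out about 1 group in 20 by chance. It picked out 9. Esrra was high in replicate 2 of the WT livers with insulin (96.4 CPM, the others 53.7 to 59.0), Ppargc1a in replicate 3 of the ERRα-/- livers with saline (70.9 CPM, the others 19.8 to 26.1) and Ppargc1b in replicate 1 of the WT livers with insulin (18.4 CPM, the others 5.95 to 6.27). Replicate 2 of the WT livers with insulin also had a low share of mitochondrial genome counts (1.88%) and few genes with a count (14507), and replicate 3 of the ERRα-/- livers with saline had a high share (3.91%). Replicate 1 of the ERRα3SA muscles had a high share (19.32%) and few genes with a count (16984), and replicate 4 of the ERRα3SA livers had a low total (20.5 M counts). The causes were not tested.

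The interaction of genotype and insulin had an unadjusted p under 0.05 for Esrra (-1.65, adjusted p = 0.422 by edgeR) and for Perm1 (-8.75, adjusted p = 0.460 by edgeR). For Esrra the ERRα-/- livers hold only 11 to 62 remaining counts of the gene they lack. For Perm1 the 4 WT livers with saline hold 0 counts. Of the 14 interactions tested over the 7 genes, these were the 2 at that level.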

How the results depend on the processing

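Counts of genes passing the adjusted threshold depended on the method and on single samples. By DESeq2 they were 248 (edgeR 11) for ERRα-/- against WT with saline, 241 (8) with insulin, 936 (425) for insulin in WT livers, 988 (398) in ERRα-/- livers, 20 (0) for their interaction, 42 (0) for ERRα3SA in liver, 56 (0) in muscle and 27 (0) for the interaction with tissue. Without the low-count filter they were 30 for ERRα-/- against WT with saline, 31 with insulin, 640 for insulin in ERRα-/- livers, 2 for ERRα3SA in liver and 1 for its interaction with tissue. With all groups of a table in 1 fit they were 96 for ERRα-/- against WT with insulin, 766 for insulin in WT livers, 262 in ERRα-/- livers and 2 for ERRα3SA in muscle. By the study's threshold, ERRα3SA gave 1050 genes in liver (651) and 1071 in muscle (639) without the filter, and 1013 in muscle with all groups in 1 fit.

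Of the 7 genes, DESeq2 called 1 for ERRα-/- against WT with saline, where Ppargc1a had 0.95 but missed the threshold. For insulin in WT livers 4 were called without the filter and 4 with all groups in 1 fit (Esrra, Ppargc1a, Ppargc1b and Perm1). For insulin in ERRα-/- livers 1 was called by DESeq2, by RLE normalization and without the filter (Ppargc1b), and 1 with all groups in 1 fit (Esrra).

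With the replicate number as a block, as if samples of one number were pairs, 1 gene was called for ERRα-/- against WT with saline, with Ppargc1a at 0.77 and past no threshold, 2 with insulin (Esrra and Esrrg) and 2 for insulin in ERRα-/- livers (Ppargc1a and Ppargc1b, past both thresholds). ERRα3SA gave 334 genes in muscle by the study's threshold. The block turned the sign of the interaction for Ppargc1b (0.053) and of Esrrb in ERRα3SA liver (-0.023). ERRα-/- replicate 3 with saline has no partner with insulin, so it carries no weight in the block for insulin in ERRα-/- livers. WT replicate 3 with insulin has no ERRα-/- partner and carries no weight in the block between genotypes with insulin.

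Leaving out 1 sample at a time moved the counts by the adjusted threshold to 2 to 47 for ERRα-/- against WT with saline, 3 to 48 with insulin, 105 to 409 for insulin in WT livers, 42 to 608 in ERRα-/- livers, 0 to 464 for ERRα3SA in muscle and 0 to 369 for its interaction with tissue. By the study's threshold they were 818 to 1778 for ERRα-/- against WT with insulin, 378 to 2506 for ERRα3SA in muscle and 710 to 2766 for the interaction with tissue. Of the 7 genes, 1 to 2 were called for ERRα-/- against WT with saline and 1 to 2 with insulin, 0 to 2 for insulin in ERRα-/- livers, 0 to 1 for ERRα3SA in liver, 0 to 3 in muscle and 0 to 1 for the interaction with tissue. Ppargc1a in ERRα-/- against WT livers with saline went from 0.32 to 1.23.

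Signs turned in some of these fits for values that passed no threshold with all samples kept and unpaired. Of the values below, only that of Ppargc1a in muscle at -0.36 passed the study's threshold. For ERRα-/- against WT, Esrrb with saline went from -0.016 to 0.36, and with insulin Esrrg from -0.044 to 0.89, Ppargc1b from -0.71 to 0.036 and Pprc1 from -0.12 to 0.16. For insulin in WT livers Esrrb went from -0.20 to 0.17 and Esrrg from -0.015 to 0.92. In the interaction of genotype and insulin Esrrg went from -0.48 to 0.46, Ppargc1a from -0.88 to 0.024, Ppargc1b from -0.44 to 0.48 and Pprc1 from -0.21 to 0.055. For ERRα3SA in liver Esrrb went from -0.17 to 0.20 and Esrrg from -0.30 to 0.63. In muscle Ppargc1a went from -0.36 to 0.022, Ppargc1b from -0.20 to 0.014, Pprc1 from -0.043 to 0.16 and Perm1 from -0.12 to 0.13. In the interaction with tissue Esrrb went from -0.051 to 0.36, Esrrg from -0.89 to 0.10, Ppargc1a from -0.13 to 0.39 and Ppargc1b from -0.015 to 0.41. The cause was not tested.

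Groups hold 3 or 4 animals, and the tissues are mixtures of cells. Perm1 in liver and Esrra in ERRα-/- livers rest on a few counts, and folds there carry counting error. The counts do not tell which exons the remaining Esrra reads cover, and RNA says nothing of protein or its phosphorylation. The insulin effect was seen at 4 h only.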
